A study of Mus musculus with 2 samples.

Results

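The proteasome genes of mouse hematopoietic stem and progenitor cells are described here, taken as every gene whose symbol in the platform annotation starts with Psma, Psmb, Psmc, Psmd, Psme, Psmf or Psmg. The rule found 49 genes with 86 probes among 19057 named genes, and no measured value entered it. The group held 15 constitutive core genes, 5 immunoproteasome genes, 17 genes of the regulatory cap, 7 assembly genes and 5 other symbols. Expression was measured on Illumina bead arrays in Flt3-low LSK cells, which are lineage-negative, Sca1-positive and c-Kit-positive and include the hematopoietic stem cells (HSCs). The labels call 1 sample control and the other CA/CA, read here as the genotype of the series' transgenic mice, in which IKK2 is made in a constitutively active form in HSCs, IKK2 being the kinase that activates canonical NF-kB signalling. The promoter or Cre that drives the transgene, and the strain, age and number of the mice, are not stated in the labels used here. With 1 array for each genotype there is no replicate error, and no difference could be tested.

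The proteasome degrades proteins tagged with ubiquitin. Its core particle is a stack of rings built from alpha subunits (Psma genes) and beta subunits (Psmb genes), and Psmb5, Psmb6 and Psmb7 encode the beta subunits that cut peptide bonds. The regulatory cap recognises tagged proteins and unfolds them with its ATPases (Psmc genes), while some of its other subunits (most Psmd genes) bind or remove ubiquitin. Under interferon gamma, Psmb8, Psmb9 and Psmb10 replace Psmb5, Psmb6 and Psmb7 in newly made cores. The resulting immunoproteasome yields peptides that fit MHC class I well, and the activator PA28, encoded by Psme1 and Psme2, can dock onto it in place of the cap. Blood-forming cells are known to express immunoproteasome subunits without stimulation.

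The promoters of the inducible catalytic subunits are shown because Psmb10 and Psmb9 had the largest differences of all members between the samples. Psmb8 differed by less than several other members, such as Psmd14 and Psmc1. Each promoter is the RefSeq window from 250 bases before to 50 after the gene's start, in GRCm38.p6, read 5′ to 3′ on the gene's own strand. Capitals mark matches on either strand to short patterns: 2 of NF-kB, strict (GGGANTTCC) and loose (GGG and CC parted by 5 bases of any kind), the core of the interferon-stimulated response element (GAAANNGAA), the interferon gamma-activated site (TTCNNNGAA) and the antioxidant response element bound by Nfe2l1 and Nfe2l2 (TGACNNNGC). Psmb9 lies at chr17:34187281-34187580 on the minus strand, Psmb8 at chr17:34197945-34198244 on the plus strand and Psmb10 at chr8:105938343-105938642 on the minus strand.
Psmb9: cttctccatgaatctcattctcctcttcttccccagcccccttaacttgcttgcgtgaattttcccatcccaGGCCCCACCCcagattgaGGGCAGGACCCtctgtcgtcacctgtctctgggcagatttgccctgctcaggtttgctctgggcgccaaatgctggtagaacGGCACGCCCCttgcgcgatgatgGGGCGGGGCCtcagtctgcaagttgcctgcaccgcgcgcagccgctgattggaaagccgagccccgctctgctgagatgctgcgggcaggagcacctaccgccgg
Psmb8: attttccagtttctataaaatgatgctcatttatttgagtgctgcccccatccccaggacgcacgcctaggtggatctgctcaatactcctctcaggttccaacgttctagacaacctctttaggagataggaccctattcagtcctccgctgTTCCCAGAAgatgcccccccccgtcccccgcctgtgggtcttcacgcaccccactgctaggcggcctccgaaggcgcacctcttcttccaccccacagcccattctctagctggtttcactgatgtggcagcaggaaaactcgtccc
Psmb10: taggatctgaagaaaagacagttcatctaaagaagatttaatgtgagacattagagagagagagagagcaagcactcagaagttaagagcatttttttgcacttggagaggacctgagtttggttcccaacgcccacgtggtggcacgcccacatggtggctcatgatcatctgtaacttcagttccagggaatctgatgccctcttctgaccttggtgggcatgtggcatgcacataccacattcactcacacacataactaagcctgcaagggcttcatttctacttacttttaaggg

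The Psmb9 window held 5 matches, all to the loose NF-kB pattern and 2 of them overlapping. The Psmb8 window held 1 match to the interferon gamma-activated site, at bases 154 to 162, and the Psmb10 window held none. Such short patterns are common: of 32851 promoter windows, 50.8% held the loose NF-kB pattern, 1.68% the strict one, 8.56% the interferon-stimulated core, 8.30% the interferon gamma-activated site and 12.4% the antioxidant response element. Promoter windows were found for 41 of the 49 proteasome genes, among them 5 immunoproteasome, 11 core, 14 cap and 6 assembly genes. The loose NF-kB pattern was in 3, 7, 9 and 2 of these, in that order, and the strict one in 0 of each. The interferon-stimulated core was in 1, 2, 2 and 2, the interferon gamma-activated site in 1, 0, 1 and 1 and the antioxidant response element in 0, 2, 2 and 1. These are counts of genes, and a gene with several windows counted if any of them matched. The percentages above are of windows, so the 2 are in unlike units. The Psmb9 window shares 275 bases with that of Tap1, a subunit of the peptide transporter of class I loading. The start sites of Psmb9 and Tap1 point away from each other with 225 bases between them. Psmb9, Tap1, Psmb8 and Tap2, the other transporter subunit, were the only RefSeq genes lying wholly within the 34292 bases from the first to the last of them.

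A gene counted as measured when at least 1 of its probes reached the background floor of 92.0 signal units on at least 1 array. Of the 49 genes, 42 were measured, with 69 probes, and 41 of them on both arrays. The other 7, with 9 probes between 78.0 and 89.5 units on both arrays, were Psma1, Psma3, Psma6, Psmb11, Psmc6, Psmd3 and Psmg4. Psmb11 encodes a beta subunit of the thymus, and the others belong to the core, the cap and the assembly set. A probe at background gives only a bound and does not show that the gene is silent. Signals below are means over the measured probes of a gene, and differences are on a log2(signal + 16) scale, CA/CA minus control, which understates the differences of dim genes.

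Proteasome genes were on balance slightly higher in the CA/CA sample. Of the 42 measured members, 38 were above 0 and 4 below, that is 90.5% above 0, against 50.9% of the 10118 measured genes on the arrays. Psmd6, among the 38, passed the floor in CA/CA only, so its sign was fixed. The median difference of the members was 0.33, or 1.26-fold, against 0.01 for all measured genes. Differences were small: 5 members (11.9%) were higher by 1.5-fold or more and 0 were lower by as much, where all measured genes gave 4.07% higher and 5.71% lower. After normexp background correction 10 of the 42 members were higher by 1.5-fold or more, against 1100 of the 10118 measured genes (10.9%). Unlike the main counts, these used no bound for genes above the floor on 1 array only. Psmb10 was the 1 member at least 2-fold higher, against 1.34% of measured genes, and 0 members were at least 2-fold lower, against 1.67%. Most members were bright, and bright genes spread more, so genes with a mean signal of at least 500 are the nearer background. Of the 33 members that bright, 90.9% were above 0 and 12.1% at least 1.5-fold higher, against 53.1% and 8.39% of 1907 such genes. At least 1.5-fold lower were 0 of these members and 9.81% of these genes, and the medians were 0.35 and 0.03.

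**Figure D1:**
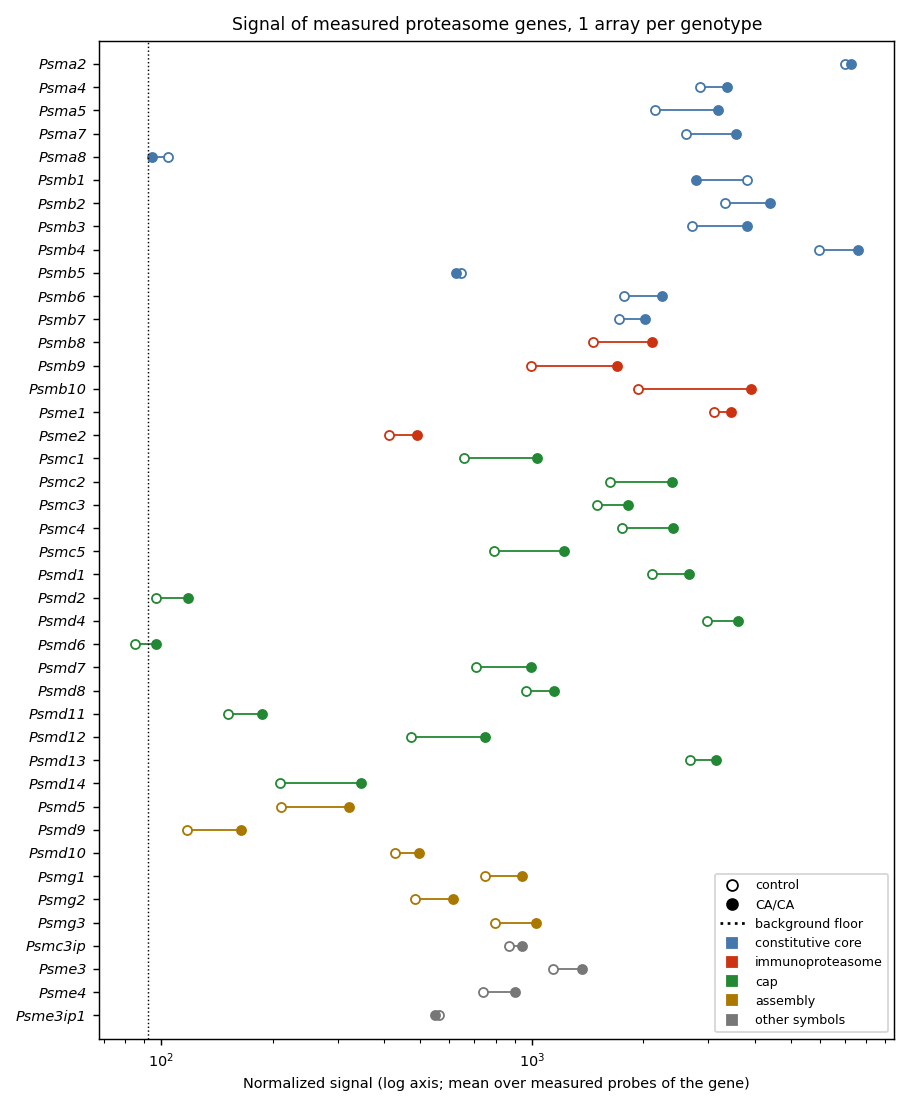
Normalized signal (log axis) of the 42 measured proteasome genes in the control (open circles) and CA/CA (filled circles) samples, 1 array each, coloured by group, with the background floor dotted. Levels of different genes come from different probes and are not comparable. In 38 genes the filled circle lies to the right, among them Psmd6, which passed the floor in CA/CA only. Psmb1 has the widest gap to the left.

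Marker genes of several cell types differed between the samples. Whether the cell makeup itself differed, and whether it had a part in the proteasome differences, was not tested. In a sorted sample, a change in the share of a cell type and a change in RNA per cell cannot be told apart. All 5 measured erythroid markers were at least 2-fold higher in CA/CA, with a summed signal of 858 in control cells and 6885 in CA/CA cells. The 3 measured B cell markers were at least 2-fold lower, with sums of 6374 and 667. Of 4 measured granulocyte and monocyte markers, S100a8, S100a9 and Elane were at least 2-fold lower. The fourth, Csf1r, was higher by 0.27, at 143 in control cells and 173 in CA/CA cells. The sums over all 4, 22629 and 6844, came mostly from Elane and S100a8, and Itgam was below the floor in both samples. Of 4 T and NK cell markers, Nkg7 was lower, at 4190 in control cells and 1055 in CA/CA cells. It made up most of the sums of 4474 and 1445 over all 4. Cd3d was higher, at 102 and 154. Cd3e and Klrd1 were higher by 0.37 and 0.29 but counted as measured through CA/CA only, which fixed their sign. Of 6 dendritic cell markers, H2-Ab1 and H2-Eb1 were at least 2-fold higher and Siglech was above the floor in CA/CA only, with sums of 508 and 2070, while Itgax, Flt3 and Cd209a were below the floor in both samples. Of the markers of LSK cells, Kit differed by -0.18, the mean of 2 probes at -0.58 and 0.21, Cd34 was at 287 and 153, Flt3 was below the floor in both, and Ly6a was not analysed here.

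All 4 sets of subunit and assembly genes had a median above 0. It was 0.30 for 12 measured core genes, 0.41 for 5 immunoproteasome genes, 0.35 for 15 cap genes and 0.37 for 6 assembly genes. Of the genes above the floor on both arrays, all 5 immunoproteasome, 14 cap and 6 assembly genes were above 0, though Psme1 was at -0.14 when the brightest probe alone stood for the gene, and so were 9 of the 12 core genes. The 4 other measured symbols had a median of 0.19. Sem1, a lid subunit outside the prefix rule, is in none of these sets and differed by -0.37. For comparison, the Ube2 family of ubiquitin-conjugating enzymes had 14 of 26 measured genes above 0 and a median of 0.02, and cytosolic ribosomal proteins had 23 of 56 and a median of -0.01. With 1 array per genotype the difference between these families was not tested.

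**Figure D2:**
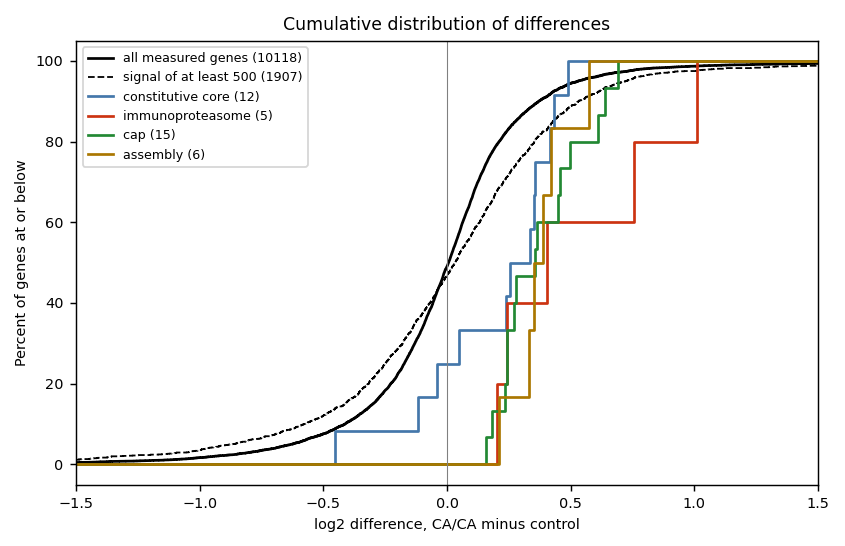
Percent of genes at or below each log2 difference (CA/CA minus control) for the core, immunoproteasome, cap and assembly genes, for all 10118 measured genes (solid black) and for the 1907 with a signal of at least 500 (dashed); differences beyond 1.5 in size are outside the axis. The curves of the cap, assembly and immunoproteasome genes start to the right of 0, while 3 of 12 core genes lie to its left. The cap curve leaves out Sem1, a lid subunit outside the prefix rule, which was lower in CA/CA.

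Among immunoproteasome genes, the inducible catalytic subunits were higher in CA/CA by more than the PA28 genes. Psmb10, which carries the trypsin-like activity, was at 1940 in control cells and 3919 in CA/CA cells, a difference of 1.01. Its 2 probes differed by 0.97 and 1.05, so the gene stood at the edge of the 2-fold rule, and it ranked 131 of 10118 measured genes by positive difference. Psmb9, which takes the place of the caspase-like subunit, was at 999 and 1695 on its 1 probe, a difference of 0.75. Psmb8, which carries the chymotrypsin-like activity, was at 1462 and 2115, and its 2 probes differed by 0.58 and 0.23, a mean of 0.41.

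The PA28 genes differed by less than the median of 0.33 over all measured members. Psme2, the beta subunit, was at 412 in control cells and 490 in CA/CA cells, a difference of 0.24. Psme1, the alpha subunit, averaged 3111 and 3456, but its probes went opposite ways. Probe ILMN_2671204 was at 2289 and 3339, while probe ILMN_2986309 was at 3934 and 3573, differences of 0.54 and -0.14. The direction of Psme1 therefore rests on the choice of probe.

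The constitutive subunits that are exchanged differed by less than their replacements at each of the 3 catalytic sites. Psmb6 was at 1776 and 2243, a difference of 0.34, which is 0.42 below that of Psmb9. Psmb7 was at 1716 and 2019, and its 4 probes were higher by 0.08 to 0.51, with a mean of 0.25 that is 0.75 below that of Psmb10. Psmb5 was at 644 and 625 on its 1 probe, a difference of -0.04, or 0.45 below that of Psmb8. For comparison, different probes of 1 gene had an SD of 0.23 over the 21 members with 2 or more measured probes and of 0.24 over all 3861 such genes. This spread is of single probes about the mean of their gene, so a gap between 2 genes carries the probe error of both. It does not measure variation between mice.

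**Figure D3:**
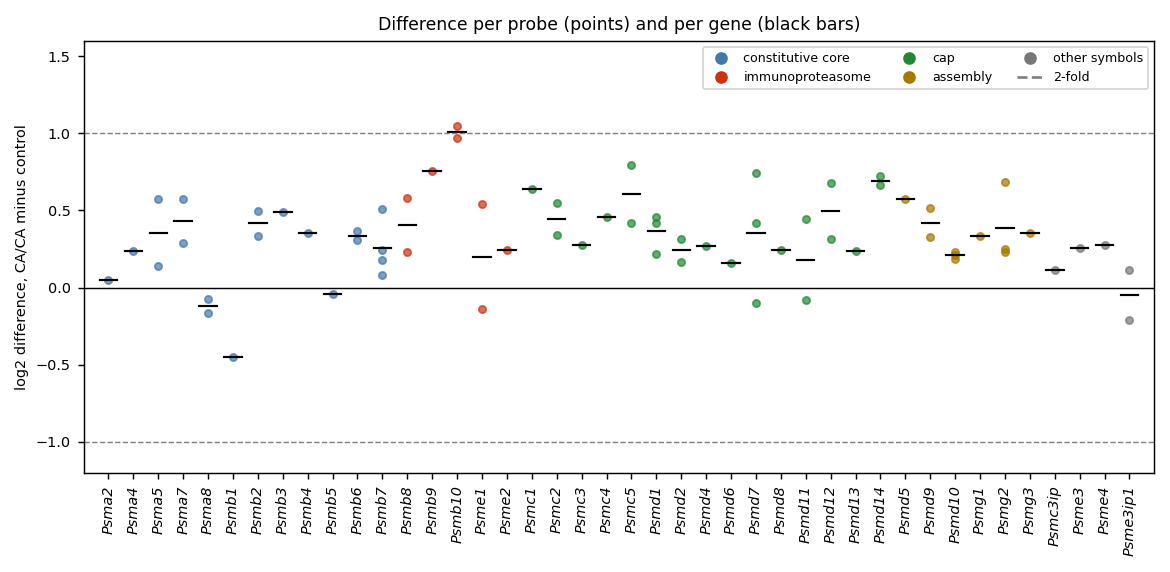
Log2 difference (CA/CA minus control) of each measured probe (points) and the mean per gene (black bars), grouped by colour, with 2-fold dashed. Of 69 probes 61 lie above 0, the Psmb10 probes are near the dashed line, and probes of Psme1, Psmd7, Psmd11 and Psme3ip1 fall on both sides of 0. Among those above 0, a probe each of Psma5, Psmc2, Psmd2, Psmd6 and Psmd12 passed the floor in CA/CA only, which fixed its sign.

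In the constitutive core the alpha and structural beta genes were mostly higher. Psma7 was at 2616 in control cells and 3561 in CA/CA cells, and its 2 probes differed by 0.29 and 0.58. Psma5 was at 4213 and 6279 on probe ILMN_2962606, a difference of 0.57, and its other probe, near the floor at 83.4 and 93.5, brought the gene mean down to 0.36. Psmb3 was at 2711 and 3815, the largest core difference at 0.49, and Psmb2 was at 3323 and 4390, or 0.42. Psmb4 and Psma4 differed by 0.35 and 0.24. Psma2 was nearly level at 7014 and 7254, a difference of 0.05.

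The 3 core genes below 0 were Psmb1, Psma8 and Psmb5. Psmb1, a structural subunit of every core, was at 3806 in control cells and 2777 in CA/CA cells on its 1 probe, a difference of -0.45, the lowest of any member. Psma8, an alpha subunit of the testis, was dim at 104 and 94.8, close to the floor. Its probes differed by -0.07 and -0.16.

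Of 15 measured cap genes, the 14 that passed the floor in both samples were higher in CA/CA, by 0.18 to 0.69, and Psmd6 passed it in CA/CA only. Sem1, a lid subunit that the prefix rule leaves out, was lower, at a difference of -0.37. Of the base ATPases that unfold substrates, Psmc1 was at 656 in control cells and 1031 in CA/CA cells, a difference of 0.64. Psmc5 was at 791 and 1227, and its 2 probes differed by 0.42 and 0.80. Psmc4, Psmc2 and Psmc3 followed at 0.46, 0.45 and 0.28, so the 5 measured ATPases had a median of 0.46. In Psmc2 1 probe was at 3173 and 4657, while the other lay near the floor.

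Of the lid, Psmd14, the enzyme that removes ubiquitin chains, had the largest cap difference, 0.69, at 209 and 347. Its 2 probes differed by 0.66 and 0.72. Psmd12 was at 473 and 749, a difference of 0.50. Its brighter probe was at 855 and 1379, a difference of 0.68. The other, at 91.7 and 118, was above the floor in CA/CA only. Psmd7 was at 706 and 994, a difference of 0.35, with 2 probes higher by 0.42 and 0.74 and the third, matched to another transcript record, at -0.10. The median of the 7 measured lid genes was 0.24. Psmd6, at 85.3 and 97.0, was at least 1.05-fold higher, a direction fixed by its passing the floor in CA/CA only. Psmd11 had 1 probe at 202 and 281 and another close to the floor, which differed by 0.44 and -0.08. Psmd13 and Psmd8 differed by 0.23 and 0.24.

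The base subunits without ATPase activity were higher by 0.24 to 0.37. Psmd1, the large scaffold of the base, was at 2111 and 2651, and its 3 probes differed by 0.22 to 0.46. Psmd4, a receptor for ubiquitin chains, was at 2982 and 3606, a difference of 0.27. Psmd2, the other large scaffold, was dim at 96.9 and 118, a difference of 0.24 that was 0.61 after normexp correction, and 1 of its 2 probes was above the floor in CA/CA only. Normexp correction also raised Psmc2 to 0.74, Psmd12 to 0.79 and, of the assembly genes, Psmd9 to 0.83.

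The 6 measured assembly genes were higher in CA/CA by 0.21 to 0.57. Psmd5, a chaperone of the base, was at 211 in control cells and 322 in CA/CA cells, a difference of 0.57. Psmd9, which also assists the base, was dim at 118 and 164, and its 2 probes differed by 0.33 and 0.52. Psmg2, which pairs with Psmg1 to start the alpha ring, was at 486 and 612 with 3 probes higher by 0.23 to 0.68. Psmg1 and Psmg3, chaperones of the core, differed by 0.33 and 0.35. Psmd10, or gankyrin, was at 429 and 497, with 3 probes close together at 0.19 to 0.23. Psmd10 lies on the X chromosome, and Xist, the RNA of the inactive X, was at 189 in control cells and 116 in CA/CA cells, while the Y-linked Eif2s3y was at 147 and 209. The labels do not give the sex of the mice, and whether it bears on Psmd10 was not tested.

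Of the other symbols, Psme3 and Psme4 encode further activators that dock onto the core. Psme3 was at 1143 in control cells and 1369 in CA/CA cells, a difference of 0.26, and Psme4 at 739 and 899, a difference of 0.28. Psmc3ip and Psme3ip1 carry the prefix but encode partner proteins, not subunits. Psmc3ip, which acts in meiotic recombination, differed by 0.11. Psme3ip1 was nearly level at 564 and 549, with 1 probe on each side of 0.

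Proteasome-linked genes outside the prefix rule lay on both sides of 0. Of 27 listed symbols, which can include more than 1 name of a gene, 14 were on the annotation and 11 were measured. The others are not analysed here. Above 0 were 9 of the 11, with a median of 0.18 and 0 beyond 2-fold. Pomp, the maturation chaperone of the core, was at 3260 in control cells and 4410 in CA/CA cells, a difference of 0.43. Nfe2l2, a transcription factor of the antioxidant response, was at 120 and 200, a difference of 0.67, while Nfe2l1, its relative that drives proteasome genes when proteasome activity fails, was at 343 and 383, or 0.15. Rad23b and Ubqln1, shuttles for ubiquitinated proteins, differed by 0.37 and 0.34. Sem1, a small lid subunit, was lower, at 1870 and 1439, a difference of -0.37.

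Genes of class I peptide loading, which use the peptides made by the immunoproteasome, had a median of 0.59 over 10 measured genes. All 10 were above 0, but Erap1, at 88.8 and 92.6, counted as measured through CA/CA only and differed by just 0.05. Tap1, which shares its promoter window with Psmb9, was at 304 in control cells and 563 in CA/CA cells, a difference of 0.86, close to the 0.75 of Psmb9. Tap2, beside Psmb8, was at 667 and 943, or 0.49. Tapbp, the loading factor tapasin, was the 1 gene at least 2-fold higher, at 1.25. The class I heavy chains H2-K1 and H2-D1 differed by 0.83 and 0.75, and Calr, the chaperone calreticulin, by 0.62.

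Genes of the interferon gamma axis spread more widely. Of 12 measured genes, 9 were above 0, with a median of 0.75. The interferon-inducible GTPase genes Igtp, Gbp2, Ifi47 and Gbp3 differed by 2.57, 2.35, 1.77 and 1.74, and Cxcl9, above the floor in CA/CA only, was higher by at least 4.44-fold. Irf1, a transcription factor known to drive immunoproteasome genes, was at 554 and 1066, a difference of 0.90. Nlrc5, the activator of class I genes, was at 206 and 323, or 0.61. Of the receptor genes, Ifngr1 differed by -0.17 and Ifngr2 by 0.06, the mean of 3 probes that ran from -0.39 to 0.38. The catalytic immunoproteasome genes, at 0.41 to 1.01, differed by less than the GTPase genes.

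**Figure D4:**
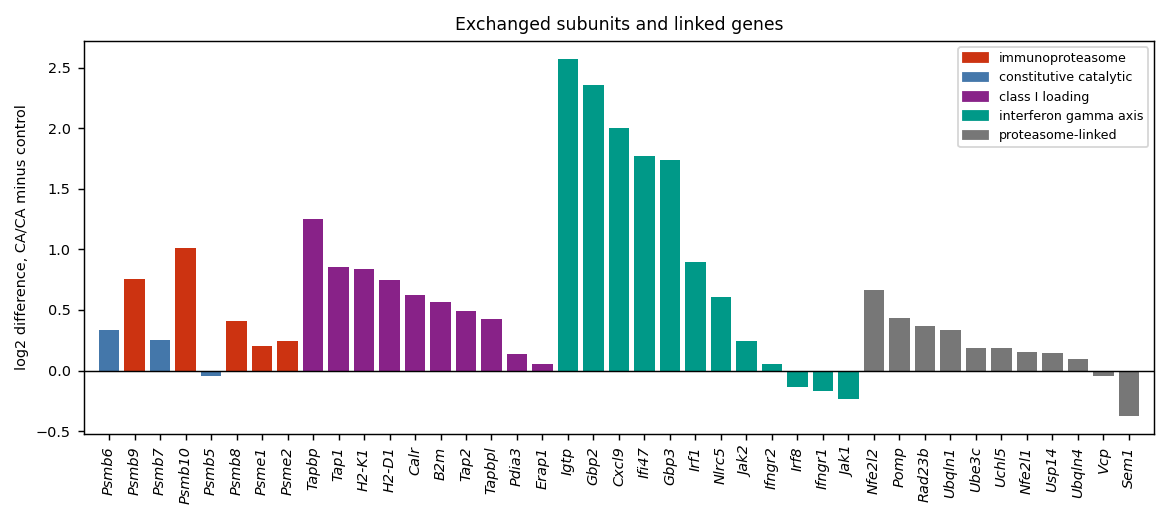
Log2 difference (CA/CA minus control) for the constitutive catalytic subunits and their inducible replacements, the PA28 genes, and the measured genes of class I loading, the interferon gamma axis and the proteasome-linked list; each bar is 1 gene on 1 array per genotype and starts at 0. The red bar of each exchanged pair is taller than the blue one to its left, and the tallest bars are Igtp and Gbp2.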

How the data were processed

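Per the labels' protocols, total RNA of 2 samples was amplified, biotin-labelled and hybridised to Illumina bead arrays. Per the submitters' processing notes, the authors used BeadStudio. Its version, settings and normalization are not stated there. The deposited intensity values of 45281 probes were linear, between 71.9 and 17159, with a median of 86.1 on either array. Sorting each column gave nearly the same values (largest log2 gap 0.0022), the pattern quantile normalization leaves, and background was still present. A second table held 4 value columns whose headings match no sample, and these were not used.

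Background, 81.7 units, was taken as the midpoint of the narrowest range that contains 25% of the values. The floor was set 4 SD above it, with an SD of 2.57 from the values below. On each array 37.0% of probes reached it. The number of arrays limits the precision. Symbols came from the platform annotation (34885 probes with 1 symbol, 18 with several, 10378 with none), and all 49 proteasome symbols were found in the RefSeq gene table of GRCm38.p6. The log2 difference of a gene, with an offset of 16, is the mean over its measured probes. Where 1 array only was above the floor, the fold is a bound against the higher of its dim signal and the lowest signal above the floor. No such bound was used after normexp correction or with no floor. With 1 array per group no test was made, and members are described beside all measured genes.

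The members, gene lists and thresholds were chosen with earlier results of these data known, and the motif patterns and the comparison families after the values had been seen. Genes described in full are the immunoproteasome and exchanged subunits and the largest differences of each set, up to 4 per direction. Of each linked list up to 5 were to be named for size, while Nfe2l1, Tap2, Irf1, Nlrc5, Ifngr1 and Ifngr2 were added after their values were seen. The steps were tested on simulated data. Alternatives were other offsets, normexp background correction in limma 3.58.1 (R 4.3.3), other floors (the 1.5-fold count under each was added after seeing the data), the brightest probe of each gene and fold rules of 1.5 and 3. Other steps used numpy 2.4.6 and pandas 2.3.3 under Python 3.11.15, and figures used matplotlib 3.10.9.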

Additional observations from a re-analysis of the deposited data

How the results depend on the processing

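The medians of the core, immunoproteasome, cap and assembly genes stayed above 0 under all 7 alternatives of offset, background correction, floor and probe choice. Their ranges, main value included, were 0.24 to 0.31 for the core, 0.40 to 0.58 for the immunoproteasome, 0.28 to 0.47 for the cap and 0.33 to 0.44 for the assembly genes. The cap median was 0.35 in the main setting, 0.47 after normexp correction, 0.28 with no floor and 0.42 with the brightest probe, and the immunoproteasome median was 0.41 and, with the brightest probe, 0.58. The number of members above 0 ran from 37 of 41 with a floor at 6 SD to 42 of 49 with no floor. The number at least 2-fold different was 1 (Psmb10) in the main setting and 0 with an offset of 50, 0 with the brightest probe per gene and 0 at 3-fold, and was 5 at 1.5-fold. Psmb10 was then at 0.997 and 0.97 (offset of 50 and brightest probe), just inside the 2-fold line. Psme1 and Psme3ip1 were the only measured members whose sign changed, both with the brightest probe. In alternatives chosen after seeing the data, the number at least 1.5-fold higher was 5 or 6, except 10 after normexp correction. Over all genes, the count beyond 2-fold was 305 in the main setting and 862 after normexp correction. The 862 used no bound for genes above the floor on 1 array only, so the 2 counts follow unlike rules. No paired analysis was possible because each group has 1 sample. With 1 array per genotype, differences between mice, sorts or RNA preparations cannot be told apart from genotype, and dim genes are limited by the background left in the signal.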
